A study of Mus musculus with 9 samples.

Results

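AP-1 genes of the FOS, JUN, small MAF and BATF families were followed in mouse retina after light damage, after light damage with A74, and in controls. The 10 genes were taken by symbol from a table of read counts for 55414 genes: Fos, Fosb, Fosl1, Fosl2, Jun, Junb, Jund, Maff, Mafk and Batf3. Of these, 8 passed the filter on low counts and were tested, while Fosl1 and Batf3 were under it. Each group held 3 retina libraries of Balb/c mice, an albino strain whose photoreceptors degenerate under bright light. Control mice carried no named treatment, the second group went through the light damage model, and the third went through the same model with A74. The labels name no altered allele in any group and do not give the age or sex of the mice, the length or strength of the light, or what A74 is, its dose, its vehicle or its timing. P2RX7, a channel opened by extracellular ATP, is named in the series title as the target inhibited. Whether the control mice received a vehicle is likewise not stated in the labels. Nor do they tie each replicate to its own animal, so the p-values reflect variation among these libraries, some of which may be technical.

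AP-1 is a dimer of basic leucine zipper (bZIP) proteins that binds DNA at short palindromic sites. FOS proteins cannot pair with each other and need a JUN partner, whereas JUN proteins can also pair among themselves. Small MAF proteins such as MAFF and MAFK have no activation domain of their own and act through partners such as NRF2 or BACH1. Several of these genes are immediate-early genes, switched on within minutes of a stimulus without new protein synthesis. In the retina, mice without Fos are known for their resistance to photoreceptor death by bright light.

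Total counts ran from 14787972 to 18740434 per library. Rod markers summed to 63070 to 69010 CPM (counts per library size, TMM-scaled) in control, 37240 to 54020 in light damage and 61500 to 64580 with A74, and all 14 had counts in every library. Libraries stood apart within groups in sex-linked transcripts and in genes of neighbouring tissue. Y-linked transcripts totalled 4249 to 5832 counts in 4 libraries, namely control and light damage replicates 1 and 2, and 0 in the other 5, which include the whole A74 group. Xist, the RNA of the inactive X chromosome, had 17227 to 18172 counts in the A74 libraries and 22253 in control replicate 3, and at most 7 in the other 5. Light damage replicate 3, with 1 Xist count and 0 Y-linked counts, matched no other library. Xist thus separated A74 from light damage completely, and what moved with it cannot be told apart from A74 in that comparison. Genes of anterior eye tissue, a list taken over from an earlier look at these data, summed to 138 to 274.7 CPM in A74 replicate 1 and those same 4 libraries, whereas the remaining 4 had 12.5 to 15.8 CPM. Lens markers reached 790.4 CPM in the A74 group and at most 92.1 CPM elsewhere. The members' results are given below with and without the libraries that stand apart.

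Promoter sequences are shown for 5 members to place the short sites through which such genes are known to be induced. Each is the 250 bases before the transcription start from RefSeq, build GRCm38.p6, written 5′ to 3′ in the direction of the gene. RefSeq windows were matched for 9 of the 10 members, 11 windows in all, with Fosl1 unmatched and 3 windows for Maff. Capitals mark TGACG, the core of the cAMP response element, in Fos, Fosb, Junb and Mafk. In Jun they mark TGACATCA, the site of its own promoter known to bind JUN and ATF2 dimers, and in Fos also TATAAA, the TATA box.
Fos, chr12:85473640-85473889, plus strand: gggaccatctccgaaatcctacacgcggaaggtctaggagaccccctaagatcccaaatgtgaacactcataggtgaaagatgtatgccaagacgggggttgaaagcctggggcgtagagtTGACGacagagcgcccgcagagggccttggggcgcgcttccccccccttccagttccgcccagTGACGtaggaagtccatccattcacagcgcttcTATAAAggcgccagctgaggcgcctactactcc
Fosb, chr7:19310046-19310295, minus strand: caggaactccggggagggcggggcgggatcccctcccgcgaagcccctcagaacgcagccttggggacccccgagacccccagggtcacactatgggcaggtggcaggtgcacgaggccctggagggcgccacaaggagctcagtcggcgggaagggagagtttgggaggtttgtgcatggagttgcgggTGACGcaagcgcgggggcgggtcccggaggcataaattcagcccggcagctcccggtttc
Junb, chr8:84978749-84978998, minus strand: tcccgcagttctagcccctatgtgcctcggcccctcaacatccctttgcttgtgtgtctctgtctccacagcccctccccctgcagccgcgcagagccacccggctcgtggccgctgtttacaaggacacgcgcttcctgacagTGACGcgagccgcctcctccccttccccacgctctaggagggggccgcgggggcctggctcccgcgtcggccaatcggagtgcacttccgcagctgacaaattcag
Mafk, chr5:139791286-139791535, plus strand: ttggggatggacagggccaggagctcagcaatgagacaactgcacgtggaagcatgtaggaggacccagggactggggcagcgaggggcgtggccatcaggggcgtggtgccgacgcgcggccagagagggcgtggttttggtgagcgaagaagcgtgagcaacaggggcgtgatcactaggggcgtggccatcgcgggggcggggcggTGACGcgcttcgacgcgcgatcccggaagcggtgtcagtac
Jun, chr4:95052223-95052472, minus strand: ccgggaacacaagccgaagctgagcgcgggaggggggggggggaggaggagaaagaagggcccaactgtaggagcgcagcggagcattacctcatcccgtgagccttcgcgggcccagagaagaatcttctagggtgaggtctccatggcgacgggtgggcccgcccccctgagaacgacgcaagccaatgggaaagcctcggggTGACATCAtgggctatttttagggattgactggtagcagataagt

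The TGACG core, searched on both strands, lay in 6 of 11 member windows, and in 17.8% of all 32851 promoter windows of the same length. Those member windows belong to 5 of 9 matched members, namely Fos, Fosb, Junb, Mafk and Maff. Fos held it at -129 and -66 counted from the transcription start, Fosb at -60, Junb at -106 and Mafk at -41. The full cAMP response element TGACGTCA, which contains the core, was found in 1 Maff window and in 1.55% of all windows. TGACATCA lay at -45 in Jun and in 1 Maff window, against 2.93% of all windows, and TATAAA in Fos alone of the members, against 12.4%. The AP-1 site TGANTCA, found in 6.75% of all windows, and the serum response CArG box, found in 1.47%, were in no member window. Sequence more than 250 bases before the start was not searched, so a site lying there would be missed. Batf3 held the STAT site TTCNNNGAA, found in 7.02% of windows, and none of the searched motifs lay in the Fosl2 and Jund windows. These are matches of letters in a short window and describe the sequence only.

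Per kilobase of exon, Jund, Jun, Fos and Junb were the most abundant members in every group. In control retina Jund, a JUN protein found in most resting cells, stood first at 16.7 ± 1.44 CPM per kb (SD, n = 3). Jun followed at 10.8 ± 0.456, Fos at 9.80 ± 1.91 and Junb at 6.24 ± 0.818 CPM per kb. The ranges of Jun and Fos overlapped, as did none of the other neighbours among these 4. Mafk was at 1.38 ± 0.0993 CPM per kb, Fosl2 at 0.582 ± 0.0426, and Fosb (0.412 ± 0.0689) and Maff (0.398 ± 0.104) overlapped each other. In light damage Fos reached 22.6 ± 4.14, Jund 21.0 ± 3.55, Junb 16.5 ± 2.34 and Jun 13.2 ± 1.25 CPM per kb, and each neighbour in that order overlapped the next. With A74 the order at the top was Jund at 19.0 (SD 1.404), Fos at 18.9 ± 2.65, Jun at 16.9 ± 2.19 and Junb at 12.2 ± 1.80 CPM per kb. The ranges of Jund, Fos and Jun overlapped there, so these 3 do not differ beyond their spread.

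Light damage against control asks whether the injured retina raises AP-1 genes. All 8 tested members rose, where 13.0% of the 17272 tested genes were called higher and 12.8% lower (edgeR's robust quasi-likelihood test, adjusted p under 0.05). Fosb rose 2.75-fold, Junb 2.65-fold, Maff 2.47-fold and Fos 2.31-fold, while Jun and Jund rose by less than 1.3-fold. The median log2 fold change of the 8 was 1.03, between 0.29 and 1.46, against 0.01 over all tested genes. In none of the 8 did the libraries of the groups overlap, as was so, with light damage above control, for 20.6% of all genes. Marker genes of other cells moved with this comparison: those of microglia and macrophages summed to 73.0 to 85.5 CPM in control and 240.3 to 401.3 CPM in light damage, those of reactive glia to 158.2 to 159.4 and 383 to 596.1 CPM. Their part in the AP-1 values was not tested, and in bulk tissue fewer cells of a type and less RNA per cell cannot be told apart.

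**Figure D1:**
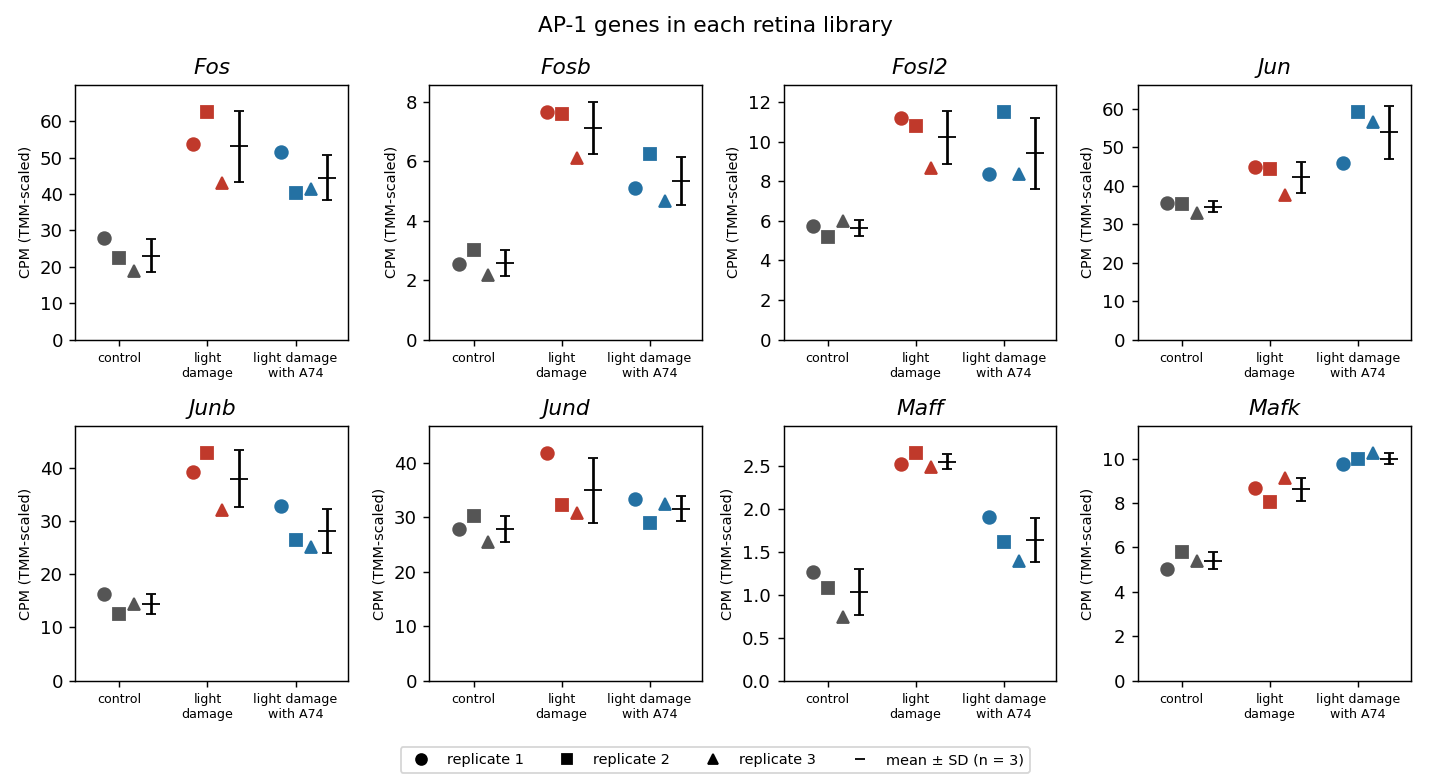
AP-1 genes in each retina library. Each panel plots the TMM-scaled CPM of 1 of the 8 tested genes (linear axis from 0) in 3 control, 3 light damage and 3 A74 libraries, with symbols for the replicate number and bars for mean ± SD (n = 3). For Mafk the A74 libraries, at 9.76 to 10.2 CPM, lie above all others, whereas for Maff they lie between control and light damage.

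Among FOS genes, Fos (ENSMUSG00000021250), the founding immediate-early member, stood at 27.8, 22.4 and 18.9 CPM in control replicates 1 to 3 and at 53.8, 62.5 and 43.0 CPM in light damage. Every light damage library was above every control library, with replicate 3 the lowest of its group. The log2 fold change was 1.21 (SE 0.19, edgeR adjusted p = 0.00277). Fosb (ENSMUSG00000003545), whose truncated protein form persists after repeated stimulation in neurons, had 2.54, 3.02 and 2.16 CPM in control and 7.64, 7.59 and 6.10 CPM in light damage. Its rise of 1.46 (edgeR adjusted p = 8.19e-05, SE 0.19) on the log2 scale was the largest of the tested members. Fosl2 (ENSMUSG00000029135), which encodes FRA-2, rose from 5.72, 5.19 and 6.0 CPM to 11.2, 10.8 and 8.66 CPM (log2 fold change 0.86, SE 0.16, edgeR adjusted p = 0.00108). Here too the groups were apart and replicate 3 was the lowest light damage library. Fosl1 (ENSMUSG00000024912), which encodes FRA-1, had 0, 3 and 6 counts in control, 6, 6 and 10 in light damage and 8, 3 and 2 with A74, too few for a comparison. In a fit without the count filter it was called in none of the 3 comparisons (log2 fold changes of 1.13, -0.66 and 0.47 for light damage against control, A74 against light damage and A74 against control, unadjusted p = 0.114, 0.329 and 0.540).

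Of the JUN genes, Junb (ENSMUSG00000052837), which can oppose JUN at some target sites, changed most. It had 16.2, 12.5 and 14.4 CPM in control and 39.1, 42.6 and 32.1 CPM in light damage (log2 fold change 1.41, SE 0.13, edgeR adjusted p = 1.99e-05). Even the lowest light damage library was well above the highest control library. Jun (ENSMUSG00000052684), the stress-responsive partner of FOS proteins, stood at 35.6, 35.2 and 32.9 CPM in control and 44.8, 44.3 and 37.7 CPM in light damage. The groups did not overlap, yet the rise was small, at 0.29 on the log2 scale (edgeR adjusted p = 0.0320, SE 0.09). Jund (ENSMUSG00000071076) rose by 0.33 (SE 0.11, edgeR adjusted p = 0.0373), from 27.8, 30.2 and 25.4 CPM to 41.8, 32.3 and 30.8 CPM, and light damage replicate 1 stood apart above the other two. The calls of Jun and Jund were lost without single libraries: Jun without any 1 control library or without light damage replicate 1 or 2 (edgeR adjusted p = 0.0647 to 0.107), Jund without control replicate 1 or 3, light damage replicate 1 or A74 replicate 3 (edgeR adjusted p = 0.0505 to 0.183). Jund was also not called in a fit of only these groups (edgeR adjusted p = 0.0523).

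Both small MAF genes among the members rose. Mafg, a small MAF gene outside the members, had a mean of 160.4 CPM in control and is given with the other bZIP genes below. Maff (ENSMUSG00000042622) had only 11 to 51 counts per library, with 1.27, 1.09 and 0.742 CPM in control and 2.53, 2.65 and 2.49 CPM in light damage, groups well apart (log2 fold change 1.30, SE 0.28, edgeR adjusted p = 0.00274). Mafk (ENSMUSG00000018143) was at 5.02, 5.79 and 5.39 CPM in control and 8.66, 8.06 and 9.12 CPM in light damage, where replicate 3 was the highest (log2 fold change 0.67, SE 0.13, edgeR adjusted p = 0.00183). Light damage replicate 3 was the lowest of its group for the other 7 tested members. Batf3 (ENSMUSG00000026630), a bZIP factor best known from dendritic cells, had at most 2 counts in any library and 0 in 6 of 9, so its level was not measurable at this depth.

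A74 against light damage asks whether the AP-1 genes fell with A74. Of the 8 tested members only Junb was called lower and only Jun was called higher, where 9.19% of tested genes were called lower and 9.07% higher. Each call is 12.5% of the members, near the share over all genes, so these counts do not set the members apart. The median log2 fold change of the members was -0.20, between -0.64 and 0.35, against -0.00031 over all genes. Markers moved far more between the same libraries: 14 of 15 microglia and macrophage markers and 10 of 10 reactive glia markers were called lower, and their sums with A74, 81.3 to 109.5 and 161.5 to 191.1 CPM, were near the control range. Among rod markers 11 of 14 were called higher. Because light damage libraries enter both this comparison and the one before, a high light damage value raises the one and lowers the other.

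**Figure D2:**
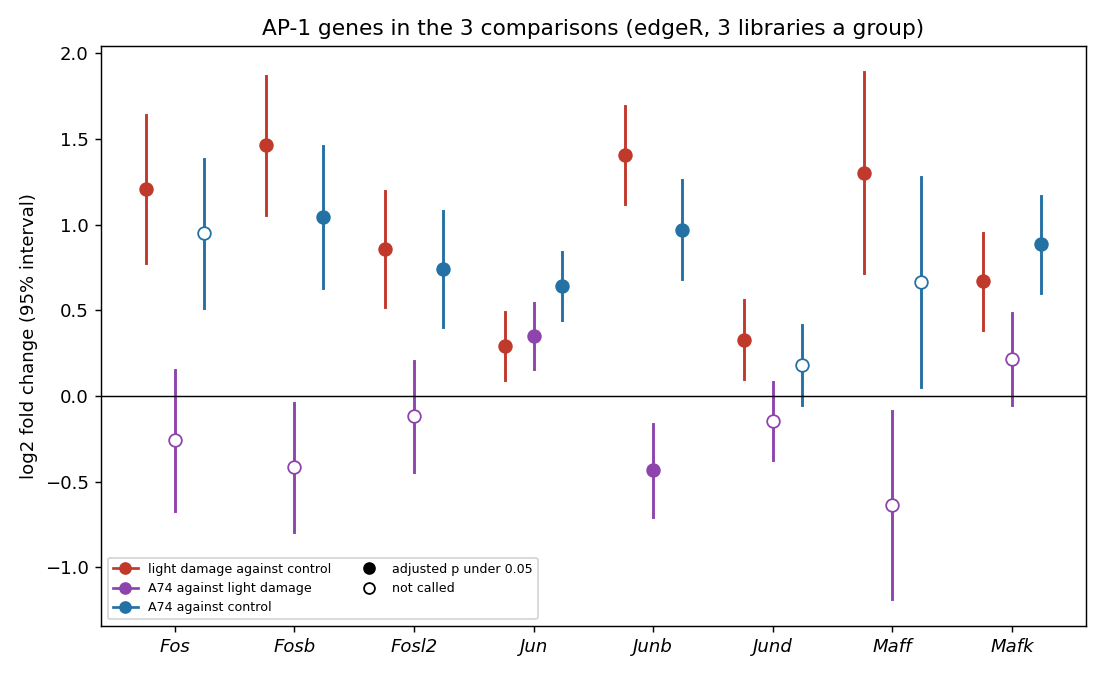
Log2 fold changes of the 8 tested AP-1 genes in the 3 comparisons, with 95% intervals from edgeR (3 libraries a group); filled points have an adjusted p under 0.05. Light damage against control lies above 0 for all 8 genes, A74 against light damage is called for Jun and Junb only, and A74 against control is called for Fosb, Fosl2, Jun, Junb and Mafk.

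Junb had 32.8, 26.4 and 25.1 CPM with A74, and A74 replicate 1 overlapped light damage replicate 3 at 32.1 CPM. A log2 fold change of -0.43 (95% interval -0.71 to -0.16, edgeR adjusted p = 0.0292) was a partial fall from the light damage level. The call was lost without light damage replicate 1 or 2 or A74 replicate 2 or 3 (edgeR adjusted p = 0.0870 to 0.120). Junb shares its locus with Prdx2 on the opposite strand, which was called higher after light damage (0.33, edgeR adjusted p = 0.00178) and lower with A74 than in light damage (-0.28, edgeR adjusted p = 0.00754). The sources used here do not say whether counting used strand, so reads of the pair cannot be told apart.

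Jun went the other way, to 46.0, 59.2 and 56.5 CPM, with every A74 library above every light damage library. The rise was 0.35 on the log2 scale (edgeR adjusted p = 0.0155, SE 0.09), about as large as that of light damage over control. The call was lost without A74 replicate 2 (edgeR adjusted p = 0.0881) or 3 (0.0674), and when libraries were scaled by total counts (0.0529). Junos, the antisense neighbour of Jun, was called in no comparison at 8 to 32 counts per library.

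The other members were not called. Fos stood at 51.7, 40.4 and 41.4 CPM with A74, overlapping light damage, with a log2 fold change of -0.26 (95% interval -0.67 to 0.15, edgeR adjusted p = 0.361). Fosb was at 5.10, 6.22 and 4.65 CPM (-0.42, interval -0.80 to -0.04, edgeR adjusted p = 0.116) and overlapped light damage at its highest library. Fosl2, at 8.35, 11.5 and 8.37 CPM, spanned the light damage range (-0.12, edgeR adjusted p = 0.637). Jund was at 33.4, 28.9 and 32.5 CPM (-0.15, edgeR adjusted p = 0.379) and also overlapped. Maff, at 1.91, 1.61 and 1.395 CPM, lay below every light damage library, with a log2 fold change of -0.64 that did not pass the test (interval -1.19 to -0.09, edgeR adjusted p = 0.0989). Mafk lay above every light damage library, at 9.76, 9.99 and 10.2 CPM (0.22, interval -0.05 to 0.49, edgeR adjusted p = 0.260). The groups did not overlap in 3 of 8 members, Jun among them. Over all genes, 17.5% lay above light damage without overlap and 17.7% below it. For Fos the interval holds 0 and reaches a fall of 0.67, so it shows neither a fall nor its absence.

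A74 against control asks which AP-1 genes stayed raised. Of the 8 tested members 5 were called higher and none lower, namely Fosb, Fosl2, Jun, Junb and Mafk, where 0.591% of tested genes were called higher and 0.892% in either direction. Fosb stood 2.06-fold above control, Junb 1.96-fold, Mafk 1.85-fold, Fosl2 1.67-fold and Jun 1.56-fold. The median of the members was 0.81 on the log2 scale, between 0.18 and 1.05, against -0.0024 over all genes. In 7 of 8 the A74 libraries lay above every control library, as was so for 11.8% of all genes, and Jund was the one that overlapped. Control replicate 3 was the only control library with Xist counts like those of the A74 libraries. What moves with Xist is therefore partly mixed with A74 in this comparison too, and its part was not tested. At the same time, 0 of 15 microglia and macrophage, 0 of 10 reactive glia and 0 of 10 Müller glia markers were called by edgeR (3, 1 and 0 higher at an unadjusted p under 0.05), with 1, 1 and 0 called by DESeq2. The medians of these marker lists were 0.31, 0.20 and -0.03 on the log2 scale. A share of 0 is near that over all genes, so it does not show a return of these markers to control.

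Junb, at 0.97 on the log2 scale (edgeR adjusted p = 0.00461, SE 0.13), Jun at 0.64 (SE 0.09, edgeR adjusted p = 0.00408) and Mafk at 0.88 (SE 0.13, edgeR adjusted p = 0.00446) were called in all 18 alternative fits tried. Fosb, at 1.05 (SE 0.20, edgeR adjusted p = 0.0184), was called in 15 of 18 and not without control replicate 1 (edgeR adjusted p = 0.102), control replicate 3 (0.0607) or A74 replicate 2 (0.148). Fosl2 was the least secure of the 5, at 0.74 (SE 0.16, edgeR adjusted p = 0.0401), called in 10 of 18. It was lost without any 1 control library, light damage replicate 2, or A74 replicate 2 or 3 (edgeR adjusted p = 0.0562 to 0.245), with Y transcripts as a term (0.0688) and with the replicate number as a block (0.0573). Leaving out control replicate 1, control replicate 3 or A74 replicate 2 brought the members called from 5 down to 3.

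Fos, Maff and Jund were not called against control. Fos had every A74 library above control and a log2 fold change of 0.95 (95% interval 0.52 to 1.38, edgeR adjusted p = 0.0754). It was called in 10 of 18 alternative fits, among them DESeq2 (adjusted p = 4.02e-07) and the fit with the replicate block (edgeR adjusted p = 0.00376). Maff, at 0.67 (interval 0.05 to 1.28, edgeR adjusted p = 0.278), and Jund, at 0.18 (interval -0.05 to 0.42, edgeR adjusted p = 0.447), were called in none. For each member the change of light damage and of A74 over the same 3 control libraries can be set side by side. It was 1.21 and 0.95 for Fos, 1.46 and 1.05 for Fosb, 0.86 and 0.74 for Fosl2, 0.29 and 0.64 for Jun, 1.41 and 0.97 for Junb, 0.33 and 0.18 for Jund, 1.30 and 0.67 for Maff, and 0.67 and 0.88 for Mafk. Jun and Mafk were the members whose A74 value was the larger of the pair.

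Leaving out light damage replicate 3 and A74 replicate 1, which differ from the rest of their groups in anterior genes and, for the former, in Y-linked counts, gave 8 members called in light damage against control, 3 in A74 against light damage and 6 in A74 against control. The added calls were both of Fos, at -0.51 against light damage (edgeR adjusted p = 0.0210) and 0.83 against control (edgeR adjusted p = 0.00801). After that removal the light damage libraries were all high in anterior genes with Y-linked counts and the A74 libraries all low without them, so in A74 against light damage these differences and A74 cannot be told apart. With Y transcripts as a term, Junb was no longer called in A74 against light damage (-0.30, edgeR adjusted p = 0.288) while Jun was. Against control 5 members were called in that fit, Fos among them and Fosl2 not. The log2 fold change of Fos against light damage turned to 0.037 there and that of Jund to 0.013. Since no A74 library had Y-linked counts, that fit rests on control replicate 3 and light damage replicate 3 for the libraries without them. These differ in Xist, with 22253 and 1 counts, so the term does not adjust A74 against light damage for what moves with Xist.

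Within the libraries high in anterior genes (1 A74 and 2 light damage libraries) and low in them (2 and 1), Junb had the same A74 against light damage value, -0.32 and -0.32. Jun was at 0.05 in the high set and 0.62 in the low set. Each set holds 1 library of a group, so no difference between sets is read from these values. Against control, all 8 members were above 0 in both sets. Fos stood at 1.05 and 1.11, Fosb at 0.87 and 1.34, Fosl2 at 0.62 and 0.73, Jun at 0.38 and 0.81, Junb at 1.20 and 0.84 and Mafk at 0.85 and 0.91 in the high and low set. Jund was at 0.20 and 0.27 and Maff at 0.70 and 1.02 in the same order. These sets were drawn from the data, and a set with 1 library of a group borrows its spread from the others.

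**Figure D3:**
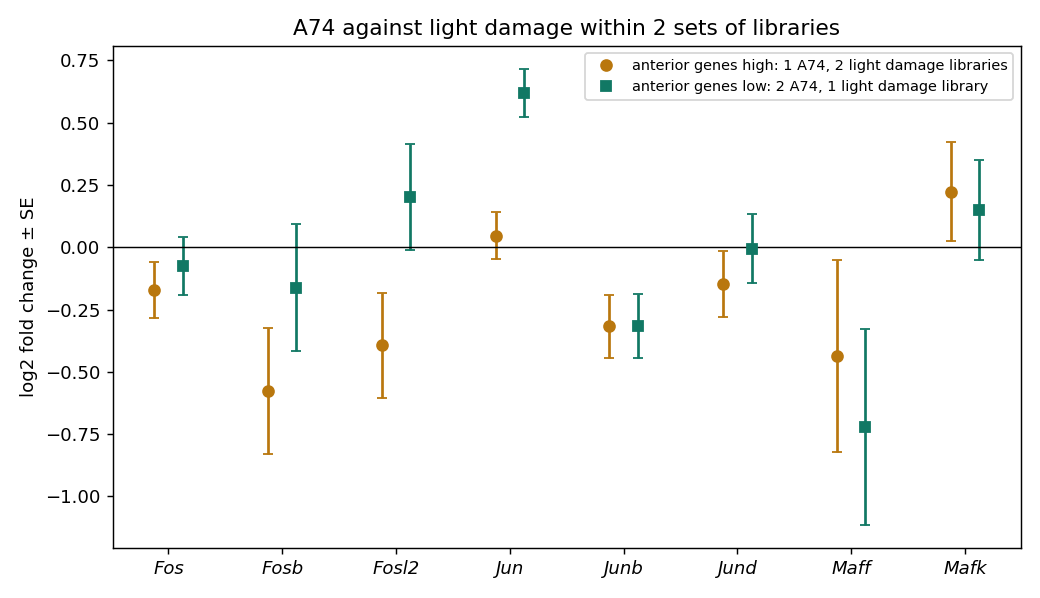
Log2 fold change ± SE of A74 against light damage for the 8 tested AP-1 genes, within libraries high in anterior eye genes (1 A74, 2 light damage) and low in them (2 A74, 1 light damage). Jun is at 0.05 in the high set and 0.62 in the low set, and Junb at -0.32 in both.

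The genes around AP-1 were read from lists that had been written with earlier results of these data known. Their counts stand against the shares of all tested genes called higher and lower, 13.0% and 12.8% in light damage against control, 9.07% and 9.19% in A74 against light damage, and 0.591% and 0.301% in A74 against control. Of 26 tested other bZIP genes, 8 were higher and 5 lower in light damage against control, 5 higher and 4 lower in A74 against light damage, and 2 higher and 1 lower in A74 against control, with medians of 0.07, 0.02 and 0.01. Atf3, a stress-induced partner of JUN, had 6.34 to 8.76 CPM in control, 12.4 to 13.8 in light damage and 15.4 to 19.2 with A74, and was called higher against control in both (0.85 and 1.25, edgeR adjusted p = 0.000343 and 0.000189). It was also called higher in A74 against light damage (0.41, edgeR adjusted p = 0.03565). Atf4, the factor of the integrated stress response, was at 190.9 to 216.9 CPM in control, 200.8 to 244.1 in light damage and 311.6 to 345.2 with A74. It rose with A74 over light damage (0.57, edgeR adjusted p = 0.000152) and control (0.69, edgeR adjusted p = 0.000205) but was not called in light damage against control (0.11, edgeR adjusted p = 0.305). Cebpd, an acute-phase bZIP factor, fell with A74 by 2.31 on the log2 scale (edgeR adjusted p = 1.05e-05), from 19.5 to 31.1 CPM to 4.12 to 6.40 CPM, close to the control range of 3.82 to 4.72. Cebpa, a myeloid factor, fell by 1.47 (edgeR adjusted p = 0.00477) and Nrl, the rod-determining MAF-family factor, rose by 0.55 (edgeR adjusted p = 0.00545). With Y transcripts as a term, Cebpa (-1.17, edgeR adjusted p = 0.0987) and Nrl (0.49, edgeR adjusted p = 0.0743) were not called. The gene lower than control with A74 was Mafg, also a small MAF (-0.28, edgeR adjusted p = 0.0272), named here after its value was known. Its means were 160.4 CPM in control and 132.1 with A74, against 5.4 and 9.99 CPM for Mafk and 1.03 and 1.64 CPM for Maff, so the most abundant of these small MAF genes went the other way.

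MAP kinases phosphorylate and induce AP-1. Of 25 cascade genes tested, 6 rose and 3 fell in light damage against control and 2 rose and 6 fell with A74 against light damage. The shares that fell in the former (12%) and rose in the latter (8%) were near those over all genes. Map3k8, an inflammatory MAP kinase kinase kinase, fell with A74 by 1.46 and Map3k5, which encodes ASK1, by 0.44 on the log2 scale, while Srf, the serum response factor, rose by 0.37 (edgeR adjusted p = 0.00562, 0.00295 and 0.0176). Mapk3, which encodes ERK1, fell by 0.30 (edgeR adjusted p = 0.00743). The calls of Map3k8, Mapk3 and Srf were lost with Y transcripts as a term (edgeR adjusted p = 0.190, 0.142 and 0.172), and that of Srf also without light damage replicate 1 or A74 replicate 1 or 3 (0.0522 to 0.10). Against control, edgeR called 0 of the 25 with A74 (1 higher and 2 lower at an unadjusted p under 0.05), and DESeq2 called 0. Of 16 phosphatase and feedback genes, 7 rose and 1 fell in light damage against control, 3 rose and 5 fell with A74 against light damage, and 1 was higher with A74 against control. That gene was Dusp1, an immediate-early phosphatase of MAP kinases, at 19.8 to 22.3 CPM in control, 24.9 to 29.5 in light damage and 27.1 to 28.5 with A74 (0.41 over control, edgeR adjusted p = 0.0425). It was called in 11 of 18 alternatives, and not with Y transcripts as a term (edgeR adjusted p = 0.148) or without control replicate 1 or 2, light damage replicate 2 or any 1 A74 library (0.0558 to 0.189). Dusp14 (0.72) and Dusp7 (0.43) rose and Dusp6 (-0.64) and Spred1 (-0.24) fell with A74 against light damage. Spred1 was not called with Y transcripts as a term (edgeR adjusted p = 0.129) or without light damage replicate 2 or A74 replicate 2 or 3 (0.0609 to 0.0872).

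Among 23 other immediate-early genes tested, 12 rose and 2 fell in light damage against control, with a median of 0.68. With A74, 5 were higher and 6 lower than light damage (median -0.02), and 4 were called higher and none lower than control (median 0.50). At an unadjusted p under 0.05 by edgeR, 17 of the 23 were higher and 0 lower than control, and DESeq2 called 3 of 15 higher. By the same unadjusted count, 7 of the 8 tested AP-1 members were higher, so a rise over control was not particular to AP-1 genes. Nr4a3, an orphan nuclear receptor gene, had 0.944 to 2.19 CPM in control, 0.902 to 1.57 in light damage and 6.38 to 11.5 with A74. It was thus high in the A74 libraries alone, with 2.98 over light damage (edgeR adjusted p = 9.37e-05) and 2.81 over control (edgeR adjusted p = 0.00116). Egr3, a zinc finger gene induced by neuronal activity, had 0.422 to 0.565 CPM in control, 0.832 to 1.25 in light damage and 1.66 to 4.49 with A74 (2.54 over control, edgeR adjusted p = 0.00500), a call lost without A74 replicate 2 (edgeR adjusted p = 0.0582). The other 2 genes called higher than control, Ier2 (0.54, edgeR adjusted p = 0.0147) and Egr2 (4.25, SE 0.91, edgeR adjusted p = 0.0401), were chosen after their values were seen. Egr2 had a mean of 0.043 CPM in control and 0.986 CPM (SD 0.553) with A74, so its control level was near 0 and the size of its rise is uncertain. Gadd45b, a growth arrest gene, and Ccn1, a matrix protein gene, fell with A74 against light damage by 1.06 and 1.14, and Sgk1, a glucocorticoid-induced kinase, rose by 0.52. Gadd45b and Ccn1 were not called with Y transcripts as a term (edgeR adjusted p = 0.0794 and 0.125).

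Of 19 textbook AP-1 target genes tested, 12 rose and none fell in light damage against control (median 0.56), 12 fell and none rose with A74 against light damage (median -0.76), and none was called with A74 against control (median 0.02). By edgeR 0 of 19 passed an unadjusted p under 0.05 in that last comparison and DESeq2 called 0 of 15. Plau, the urokinase gene, had 0.283 to 0.876 CPM in control, 8.79 to 13.5 in light damage and 0.598 to 0.765 with A74, within the control range. It fell by 4.07 on the log2 scale (edgeR adjusted p = 4.21e-07). Spp1, which encodes osteopontin, fell by 4.44, Timp1, an inhibitor of metalloproteinases, by 3.51 and Hmox1, heme oxygenase 1, by 1.63 (edgeR adjusted p = 0.000377, 0.000107 and 0.000277). Microglia and reactive glia make several of these products, and the part of those cells in the values was not tested.

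**Figure D4:**
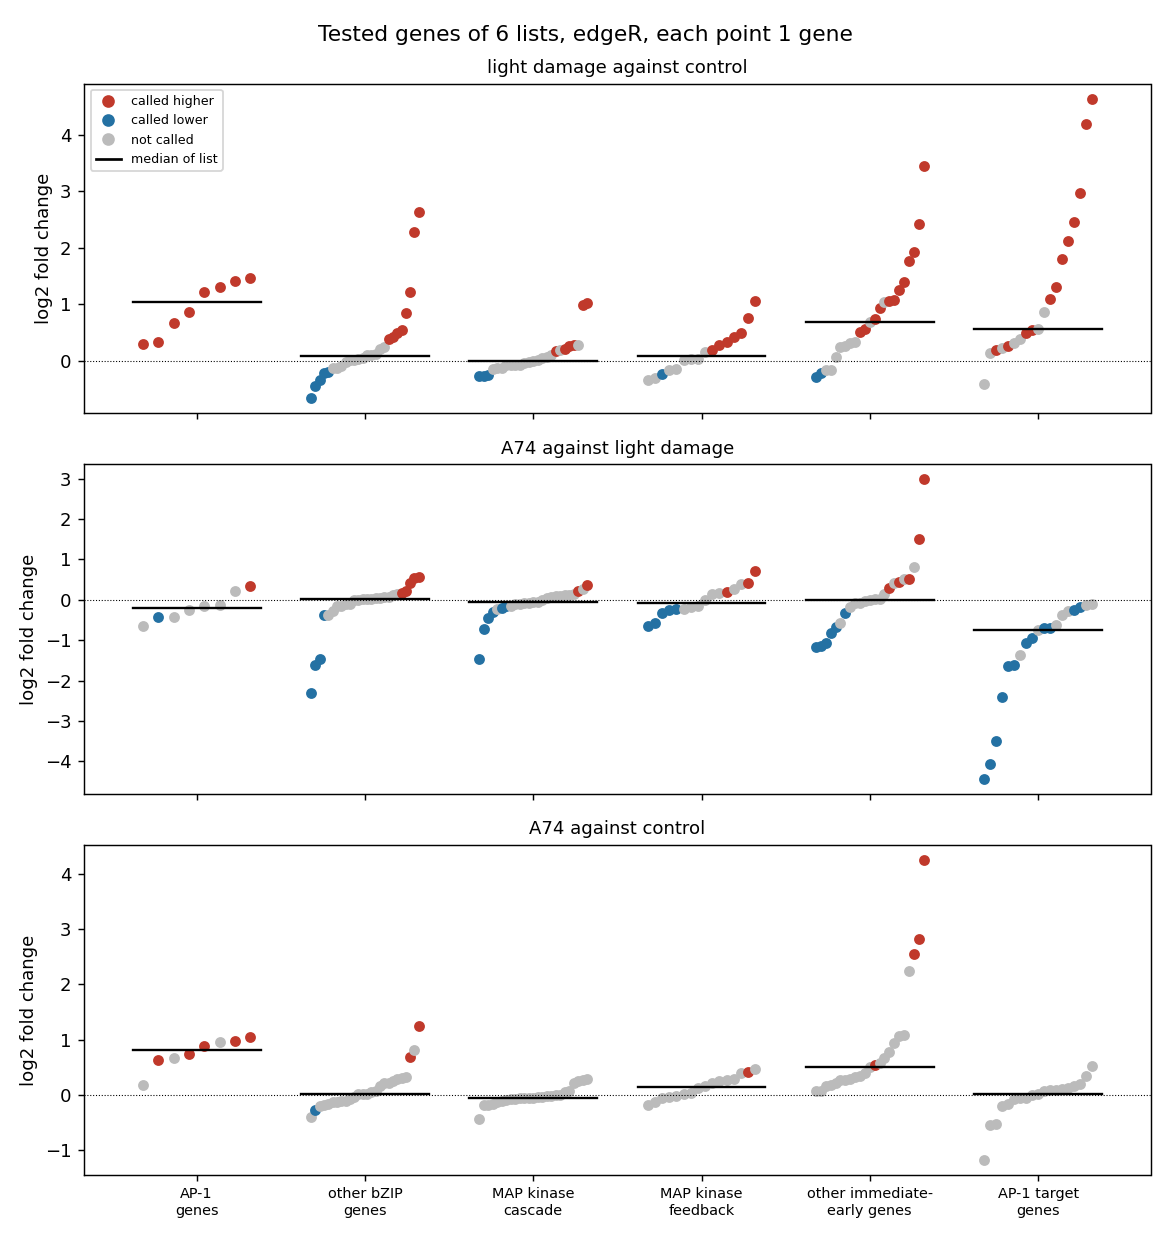
Log2 fold changes of the tested genes of 6 lists in the 3 comparisons, each point 1 gene, red called higher, blue called lower, grey not called, with a line at the list's median. Against control with A74, 5 of 8 AP-1 genes and 0 of 19 AP-1 target genes are called.

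The genes whose pattern over the 9 libraries lay nearest to each member were found by the root mean square difference of centred log2 CPM among 13568 candidates. Nearest to Fosl2 were Gadd45g (0.11), Rpl38 (0.14) and Adamts1 (0.16), and to Jun Snhg1 (0.09), Mrm2 (0.10) and Bdnf (0.11). Nearest to Mafk were Nudt1 (0.11), Ppp1r3e (0.11) and Rpp25l (0.16), to Jund Rpp25 (0.05), Resf1 (0.07) and Fmc1 (0.08), and to Maff Nfkbia (0.15), Ndufb1 (0.19) and Snx33 (0.20). Fos had Rpl38 (0.19), Ndufb1 (0.20) and Rpl38-ps2 (0.22), Fosb had Rpl38-ps2 (0.17), Ndufb1 (0.24) and Rpl38 (0.25), and Junb had Rpl38 (0.21), Rpl38-ps2 (0.23) and P2ry14 (0.25). Rpl38 and its pseudogene are near-identical copies whose reads the counting could split, so their patterns are uncertain. Among the members themselves Fos and Junb were the nearest pair (0.15) and Jun and Junb the farthest (0.51), and Jun lay nearest to Mafk (0.21).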

How the data were processed

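RNA of 9 retina libraries was sequenced, 3 per group as titled in the labels. The authors deposited whole-number counts per gene, not normalized, as the values show. Per the submitters' processing notes, the tools were RSEM 1.3.1, Bowtie2 and DESeq2 1.4.5 and the build GRCm39, with no roles given; strand use and annotation were not given in the sources used here. The AP-1 members and all gene lists were chosen with earlier results of these data known.

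Genes were kept by filterByExpr (minimum count 10, in effect in at least 3 libraries), leaving 17272 of 55414. The filter can favour genes that are high in 1 group, but the 8 tested members had at least 11 counts in every library. Counts were scaled by TMM and tested in 1 fit of all libraries with edgeR 4.0.16 in R 4.3.3 (robust quasi-likelihood, Benjamini-Hochberg over all tested genes, adjusted p threshold 0.05). SE is the absolute log2 fold change over the square root of F, and intervals cover 95%. Log2 CPM used a prior count of 2. Scripts were tested on simulated data. No pair of libraries within a group agreed within sampling noise.

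All members were named. From each list, up to 4 genes with the smallest adjusted p in A74 against light damage and up to 2 in A74 against control were named if called, and for each tested member the 3 genes of nearest pattern. Exon lengths came from GENCODE annotation of an earlier build and promoters from RefSeq GRCm38.p6, neither of the build of the counts. Deviations of same-numbered control and light damage libraries correlated at 0.12, 0.25 and 0.31 over genes, and those of unlike number at -0.29 to 0.13. In the other pairs of groups same-numbered libraries ran from -0.09 to 0.14. The numbers are those of the titles, the library names number light damage and A74 otherwise, and the labels state no pairing. Replicates 1 and 2 of control and light damage also had Y-linked counts and high anterior genes, unlike replicate 3. Pairing cannot be told apart from that split. The alternatives were 18: DESeq2 size factors, total counts, no filter, DESeq2 1.42.0, the compared groups alone, a replicate block, terms for anterior tissue or Y transcripts, joint removal of light damage replicate 3 and A74 replicate 1, and removal of each library in turn.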

Additional observations from a re-analysis of the deposited data

How the results depend on the processing

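The 18 alternatives kept the direction of every tested member in light damage against control and in A74 against control, where Maff had 17, since DESeq2 gave it no adjusted p. Leaving out single libraries gave 6 to 8 AP-1 members called in light damage against control, 0 to 2 in A74 against light damage and 3 to 6 in A74 against control, and over all genes 2818 to 5467, 1717 to 4514 and 21 to 416. The AP-1 members called in A74 against light damage numbered 1 with total counts and 1 with Y transcripts as a term, against 2. All genes called in A74 against light damage numbered 745 with Y transcripts as a term, against 3153. All genes called in A74 against control, 154 in the reported fit, numbered 258 with total counts, 718 with no count filter, 294 by DESeq2, 558 in a fit of the 2 groups compared, 96 with Y transcripts as a term and 934 without light damage replicate 3 and A74 replicate 1. The causes were not tested. With total counts the share of calls that were higher went from 50.47% to 73.83% in light damage against control, from 49.67% to 30.65% in A74 against light damage and from 66.23% to 80.23% in A74 against control, and the median of all genes in light damage against control moved by 0.10 on the log2 scale.

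With the replicate block, 8, 2 and 5 AP-1 members were called in the 3 comparisons in the order above, and 4588, 3362 and 136 genes in all. The block added Fos and removed Fosl2 in A74 against control and changed no other member's call. Log2 fold changes that turned sign were those of Fos (0.037) and Jund (0.013) in A74 against light damage with Y transcripts as a term, and those of Srf and Nr4a3 in light damage against control, none of them called there. Srf was at 0.020 with total counts and ran from -0.16 to 0.042 when single libraries were left out (the highest without light damage replicate 1), and Nr4a3 ran from -0.38 to 0.33 (above 0 without control replicate 1 or light damage replicate 1). Among the members' single-gene results, 389 kept direction and call, 29 lost the call, 11 gained it and 2 turned. Maff, at 11 to 51 counts per library, and Fosl1 and Batf3 are limited by depth.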
